A study of Arabidopsis thaliana with 8 samples.

Results

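Transcripts of the chloroplast (plastid) and mitochondrial genomes were followed in poly(A) RNA of Arabidopsis thaliana leaves. The members were all genes with an identifier beginning ATCG (plastid) or ATMG (mitochondrial) that were listed in any library. They numbered 86 of 20690 genes, 62 from the plastid and 24 from the mitochondrion. The rule uses the identifier and whether a gene was listed at all, and no difference between the genotypes.

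The libraries came from 2 genotypes in the Col-0 accession, ABI3:MTA (mta) and wild type (WT), with 4 libraries of each. Both grew in soil at 22 °C under days of 16 hours of light, and their leaves 5 to 9 were taken at an age of 4 weeks, 4 hours after first light. MTA is the catalytic subunit of the complex that writes N6-methyladenosine into mRNA. In ABI3:MTA plants a mutant lacking MTA is carried through embryo development by MTA under the ABI3 promoter, which is active in embryos and little active in leaves. The comparison addresses how leaf transcripts of these plants differ in amount from those of WT. No label says whether each library was made from other plants, so the p-values reflect the spread among the 8 libraries alone, part of which may be technical. The design text also names miCLIP libraries, not analysed here.

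Plastids and mitochondria keep small genomes of their own, which code for part of the photosynthetic and respiratory complexes and of the organelles' ribosomes. Most of their transcripts end without a poly(A) tail. A tail added inside either organelle marks the RNA for breakdown by exoribonucleases, the opposite of its role on nuclear mRNA. A poly(A) library holds organelle RNA mainly as tailed intermediates or as molecules caught at internal runs of A, so the values here need not follow the steady-state levels of organelle RNA. In bulk leaf RNA, fewer organelles or cells and less RNA in each cannot be told apart.

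Gene totals came to 17132914 to 25377350 steps per library, a step being the smallest unit of the deposited values and 1 read if the authors divided whole counts. The plastid members held 4038 to 10481 steps and the mitochondrial members 895 to 1957, so counting error is small for the leading members and large for those with a few steps. MTA (AT4G10760) fell in mta leaves, with a normalised read count of 51.0 ± 10.7 in mta and 72.5 ± 8.32 in WT (SD, n = 4 each), without overlap (log2 fold change -0.52, standard error 0.15, limma adjusted p = 0.0312). That call was lost without mta 1, WT 2, WT 3 or WT 4, where the log2 fold change lay between -0.44 and -0.54. No library listed ABI3 (AT3G24650). Before any organelle result, 3 libraries stood apart on the second principal component of the tested nuclear genes (26.2% of the variance). There mta 1 scored 29.3 and WT 1 scored 31.1, at one end, and mta 4 scored -45.5 at the other. The closest pair was WT 2 and WT 3, whose chi-square was 1.74 per degree of freedom, against 5.26 to 61.3 for other pairs within a genotype.

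Plastid transcripts formed a small share of every library and overlapped between the genotypes. Shares are given in ppm, parts in 1000000 of the gene total of a library. Plastid members held 501.3, 293.8, 337.4 and 356.4 ppm in mta 1 to 4, and 371.7, 235.7, 317.8 and 224.6 in WT 1 to 4. The mean was 372.2 ± 89.9 ppm in mta and 287.4 ± 69.9 in WT (SD, n = 4 each), a difference of 84.8 ppm and a ratio of 1.29. Within each genotype library 1 was the highest, and WT 1 lay above mta 2, mta 3 and mta 4. Without mta 1 the difference was 41.8 ppm, with 329.2 in mta and 287.4 in WT, and without WT 1 it was 112.9. It was 56.2 when WT 1, mta 1 and mta 4 were all left out. A sum over these members was given no test.

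Mitochondrial members held several times less of the counted signal. They held 51.6, 67.1, 58.9 and 87.9 ppm in mta 1 to 4, and 53.9, 52.2, 71.3 and 43.2 in WT 1 to 4. The mean was 66.4 ± 15.7 ppm in mta and 55.2 ± 11.7 in WT (SD, n = 4 each), a difference of 11.2 ppm. The genotypes overlapped: WT 3 lay above mta 1, mta 2 and mta 3, and mta 4 was the highest library of all. The difference was 4.03 ppm without mta 4, 7.21 without WT 4 and 7.43 without WT 1, mta 1 and mta 4. Plastid totals were 4.06 to 9.72 times mitochondrial totals in mta libraries and 4.46 to 6.90 times in WT libraries. Both totals leave out reads with more than 1 alignment, so these ratios need not be those of the transcripts.

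**Figure D1:**
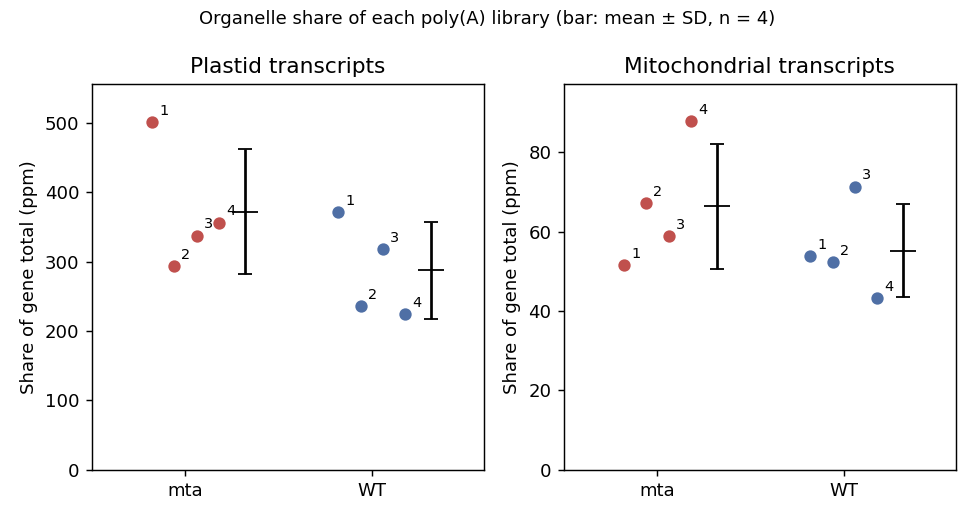
Deposited values summed over plastid members (left) and mitochondrial members (right), in ppm of the gene total of the same library. Each point is a library with its replicate number, and the bar is the mean ± SD (n = 4 per genotype). Both shares overlap between mta and WT, with mta 1 the highest plastid share (501.3 ppm) and mta 4 the highest mitochondrial share (87.9 ppm).

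Reads with more than 1 alignment were counted apart from genes, and they outweighed the organelle total by 167 to 271 times. That row made up 8.03 to 9.07% of the deposited total in mta libraries and 6.06 to 7.07% in WT libraries, with no overlap. How many of these reads came from organelles was not tested. In the TAIR10.1 reference assembly, 77.9% of the 50-base windows in 33 mitochondrial protein-coding genes occurred more than once in the genome. For 24 of those 33 genes more than 90% of windows also occurred in the nuclear chromosomes, and for 15 all windows were repeated. In the plastid 29.5% of windows in 85 protein-coding genes were repeated, and 11 genes were over 90% repeated, all of them by copies within the organelle genomes. Those 11 were rpl2, rpl23, ycf2, ndhB and rps7, which code for ribosomal proteins, an NDH complex subunit and a large protein of the inner envelope and lie in the plastid's inverted repeat, together with 1 of the ycf1 entries. In 58 of the 85 plastid genes no window was repeated. Genes of other kinds, those for ribosomal RNA among them, were not scanned. The scanned genes could not be matched to the member identifiers, so the leading members need not be among them.

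**Figure D2:**
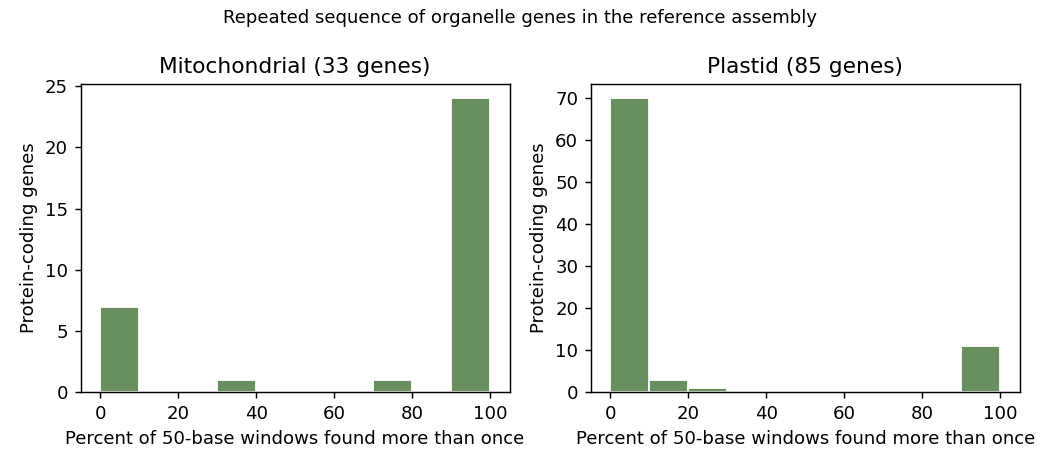
Number of protein-coding genes of the TAIR10.1 assembly (vertical axis) by the percent of their 50-base windows found more than once in the genome (horizontal axis), for the mitochondrion (left) and the plastid (right). Of the mitochondrial genes, 24 of 33 lie above 90%, and of the plastid genes 11 of 85.

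The annotation's notes named 53 ATMG identifiers as the closest match or copy of 55 nuclear genes, all 55 on chromosome 2, where a near-complete copy of the mitochondrial genome sits in Col-0. Only 4 of those 53 identifiers were among the 24 mitochondrial members, and 20 of the 24 members were not mentioned. Of the 55 nuclear genes, 3 were listed in any library: AT2G07715 and AT2G07698 in all 8, and AT2G07667 in mta 3 alone. AT2G07715 had deposited values of 3.99, 2.85, 1.82 and 2.46 in mta 1 to 4 and 5.35, 4.03, 1.98 and 4.02 in WT 1 to 4. A mitochondrial gene that is not listed here is thus not shown to lack tailed transcripts.

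Members are by definition listed in at least 1 library. Of 62 plastid members 48 were listed in all 8 libraries, and 54 to 59 in any one of them. Of 24 mitochondrial members 9 were listed in all 8, and 14 to 20 in any one. No member was listed in all libraries of one genotype and in none of the other. Members listed only in mta libraries were 1 plastid and 2 mitochondrial, and members listed only in WT libraries were 2 plastid and 2 mitochondrial. A row below 1 was left out of the deposited lists, so an unlisted member is low, not shown to be absent.

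Plastid signal was spread over a few members. The first, ATCG00020, took on average 16.8% of the plastid total, followed by ATCG00480 (11.6%), ATCG00490 (10.5%), ATCG00340 (8.18%), ATCG00350 (7.62%) and ATCG00280 (7.53%). The first 5 together held 54.7% and the first 10 held 76.6%, the last of them being ATCG00680, ATCG00120, ATCG00190 and ATCG00470. At the other end, 30 of the 62 had a mean normalised read count under 10. These are shares of signal, not levels per length, since the reference gave no length for these identifiers. Their order was not fixed: ATCG00020 led in 6 libraries and ATCG00480 in the other 2, which were WT 2 and WT 4.

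The mitochondrial signal came almost wholly from a pair of identifiers. ATMG01390 led in all 8 libraries with an average of 52.7% of the mitochondrial total, and ATMG00020 held 33.4%. Together they made 86.0%, and 21 of the 24 mitochondrial members had a mean normalised read count under 10. The third, ATMG00660, took 3.39%. Within the mitochondrial total the share of ATMG01390 averaged 52.7% in mta and 52.7% in WT, with SDs of 6.45 and 3.04 percentage points (n = 4 each). The reference table matched 0 of the 86 identifiers, and annotation notes gave a name to only 7 members. The others are given by identifier, with no role.

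**Figure D3:**
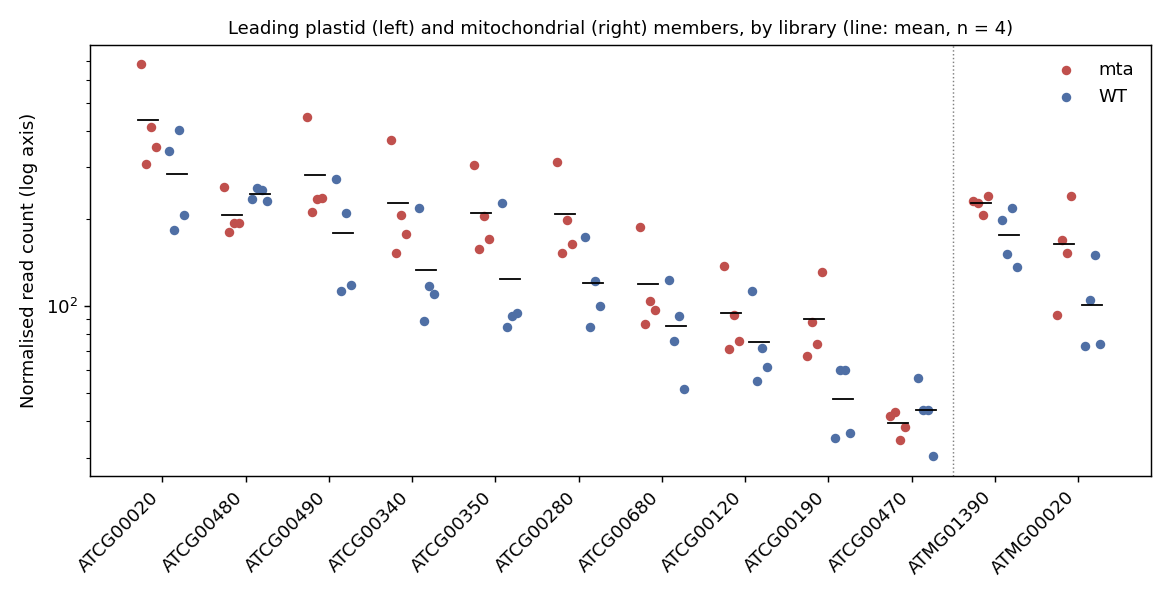
Normalised read count (log axis) of the 10 leading plastid members (left) and the 2 leading mitochondrial members (right) in each library, mta left of WT, with a line at the mean of 4 libraries. Of these 12 members only ATCG00190 has no overlap between the genotypes. For most plastid members the highest point of each genotype is library 1, and ATCG00480 and ATCG00470 have the higher mean in WT.

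Normalised read counts, the deposited values after a rescaling by trimmed means of M values, were fitted with limma over 18328 genes, and log2 fold changes below are those of log2(value + 1), mta minus WT. They understate the changes of low values. The filter on low values (4 or more libraries at 3 or above, before rescaling) kept 44 plastid and 7 mitochondrial members. The 18 plastid members left out held 1.32% of the plastid total, and the 17 mitochondrial members left out held 5.60%. Over all tested genes 26.4% were called at an adjusted p under 0.05, 13.3% higher in mta and 13.1% lower.

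Among plastid members 8 of 44 (18.2%) were called, all 8 higher in mta: ATCG00190, ATCG00280, ATCG00380, ATCG00670, ATCG00770, ATCG00790, ATCG00800 and ATCG00810. None was called lower. That share of 18.2% lies below the 26.4% of all genes called in either direction, and above the 13.3% called higher. The median log2 fold change of the 44 was 0.46, against -0.02 over all tested genes, and 40 of the 44 were above 0, against 48.0% of all tested genes. Without a filter the median over all 62 was 0.39, and -0.01 over all genes. At an unadjusted p under 0.05 there were 16 (36.4%), all higher, against 38.3% of all genes in either direction and 19.1% higher. For 4 of the 44 (9.09%) the genotypes did not overlap, mta above in each, against 28.4% of all genes in either direction. The number called was 2 without WT 4, 3 without WT 2 or WT 3, 4 without mta 1 (1 of them lower in mta), 4 without mta 3, and 13 without WT 1. The share called over all genes was 18.4% in the fit that lacked WT 4, 19.2% and 19.1% in those that lacked WT 2 and WT 3, 24.5% and 19.3% in those that lacked mta 1 and mta 3, and 28.4% in the one that lacked WT 1.

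Plastid values also varied with the library. For 33 of the 44 the highest mta library was mta 1, for 36 the highest WT library was WT 1, and for 29 both held. Library 1 was also the lowest of its genotype in long nuclear genes, by gene length in the reference and not transcript length. The log2 difference between genes of at least 3000 bases and those under 1000 was taken about the mean of all libraries. It was -0.43, -0.15, -0.29 and 0.27 in mta 1 to 4, and -0.19, 0.33, 0.34 and 0.11 in WT 1 to 4. Apart from library 1, mta 2 and mta 3 were negative, whereas mta 4, WT 2, WT 3 and WT 4 were positive, so the trend also varied with genotype. The part of this trend in the plastid values was not tested. Of the 8 called members 3 were highest in mta 1 and 4 in mta 4.

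**Figure D4:**
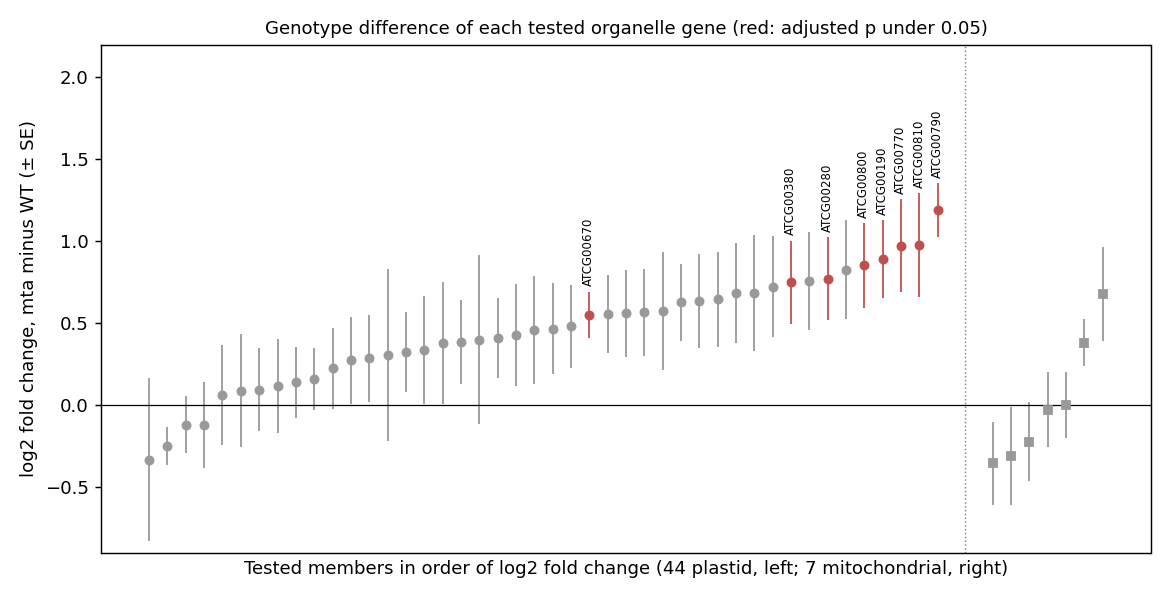
log2 fold change (mta minus WT, ± standard error, n = 4 per genotype) of the 44 tested plastid members (circles, left) and 7 tested mitochondrial members (squares, right), each in increasing order. Red marks the 8 with a limma adjusted p under 0.05, all plastid and all above 0. Of the plastid members 40 lie above 0, and of the mitochondrial members 3.

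ATCG00790 had the highest log2 fold change of any tested member. Its normalised read counts were 38.6, 38.2, 37.8 and 45.9 in mta 1 to 4, and 23.2, 15.2, 16.2 and 14.3 in WT 1 to 4. Every mta library lay above every WT library by a clear gap, and the mta libraries other than mta 4 were almost equal. The means were 40.1 ± 3.86 in mta and 17.2 ± 4.03 in WT (SD, n = 4 each; log2 fold change 1.19, standard error 0.16, limma adjusted p = 0.000441). The call held under all 21 alternatives tried for it, the scaling to the plastid total among them.

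ATCG00670, which the annotation notes call the plastid-encoded CLP P, a proteolytic subunit of the chloroplast Clp protease, was a second member without overlap. It had 23.3, 18.9, 18.7 and 20.7 normalised read counts in mta 1 to 4, and 12.7, 12.5, 14.6 and 14.3 in WT 1 to 4. Both groups were tight, and a log2 fold change of 0.55 (standard error 0.14) passed the test (limma adjusted p = 0.0149). The call was lost under 2 of 21 alternatives, the removal of WT 1, mta 1 and mta 4 and the scaling to the plastid total.

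ATCG00190 was the third without overlap. It had 67.1, 88.0, 73.6 and 130.4 normalised read counts in mta 1 to 4, and 34.9, 60.0, 60.3 and 36.3 in WT 1 to 4. Unlike most plastid members it was lowest in library 1 of each genotype and highest in mta 4 among the mta libraries. Its log2 fold change was 0.89 (standard error 0.24, limma adjusted p = 0.0188), lost without mta 2, WT 1 or WT 4, with the authors' scaling alone, and when scaled to the plastid total (adjusted p = 0.474).

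ATCG00380, the fourth, was a low member that passed the filter mainly through mta, with deposited values of at least 3 in 4 mta libraries and 1 WT library, so it was admitted by the genotype in which it is high. Of the 38 plastid members that reached 3 in all 8 libraries, 7 were called and 3 did not overlap. It had 3.47, 4.45, 3.29 and 5.90 normalised read counts in mta 1 to 4, and 2.22, 1.69, 2.87 and 1.67 in WT 1 to 4. Its log2 fold change of 0.75 (standard error 0.25) was the call nearest the threshold (limma adjusted p = 0.0487), and it was lost when any single library was left out.

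ATCG00280 was the most abundant called member. It had 313.4, 151.9, 198.2 and 164.0 normalised read counts in mta 1 to 4, and 173.0, 84.3, 122.2 and 99.9 in WT 1 to 4. It followed the common pattern, with library 1 highest in both genotypes, and WT 1 lay above mta 2 and mta 4. The log2 fold change was 0.77 (standard error 0.25, limma adjusted p = 0.0417), lost under 8 of 21 alternatives, among them the removal of mta 1, mta 3, WT 2, WT 3 or WT 4. The 8 called members held 14.7% of the plastid total.

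Identifiers in this genome run along the chromosome, and 4 of the 8 called members fell in 1 run. Between ATCG00770 and ATCG00810 there were 5 listed members, and 4 of them were called higher. This run was singled out after its values were seen. ATCG00770 had 14.6, 9.43, 11.2 and 18.5 normalised read counts in mta 1 to 4 and 9.52, 3.39, 6.53 and 6.45 in WT 1 to 4, and its log2 fold change was 0.97 (limma adjusted p = 0.0274). ATCG00800 had 20.5, 14.7, 11.8 and 14.2 in mta 1 to 4 and 13.3, 7.79, 6.53 and 5.50 in WT 1 to 4, with a log2 fold change of 0.85 (limma adjusted p = 0.0317). In both genes a single WT value, that of WT 1, reached into the mta range.

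ATCG00810 had 10.1, 6.02, 14.8 and 12.9 normalised read counts in mta 1 to 4 and 8.89, 4.40, 3.40 and 3.82 in WT 1 to 4, with a log2 fold change of 0.98 (limma adjusted p = 0.0410). Here too WT 1 was the WT library that overlapped. ATCG00780, between the called members, had a log2 fold change of 0.48 (limma adjusted p = 0.189). The calls of ATCG00770, ATCG00800 and ATCG00810 were lost under 7, 7 and 9 of 21 alternatives, always with the removal of mta 1, WT 2, WT 3 or WT 4 among them. The preceding members ATCG00720, ATCG00730, ATCG00740 and ATCG00750 were not called, with log2 fold changes of 0.57, 0.56, 0.23 and 0.29. ATCG00750 is the ribosomal protein S11 gene of the notes.

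The most abundant plastid members did not pass the test. ATCG00020 had 680.6, 308.2, 415.2 and 351.6 normalised read counts in mta 1 to 4, and 342.5, 182.2, 404.9 and 206.0 in WT 1 to 4. WT 3 lay above mta 2 and mta 4, and the log2 fold change was 0.64 (standard error 0.29, limma adjusted p = 0.126). ATCG00490 had 447.8, 210.2, 232.7 and 235.9 in mta 1 to 4, and 274.6, 112.8, 209.0 and 118.3 in WT 1 to 4. Its mta value was set apart in mta 1, and the log2 fold change was 0.69 (standard error 0.30, limma adjusted p = 0.123). ATCG00340 and ATCG00350 had log2 fold changes of 0.76 and 0.83, both with a standard error of 0.30, and limma adjusted p-values of 0.0868 and 0.0644. ATCG00490, ATCG00340 and ATCG00350 were called higher with array weights, without WT 1, without WT 1, mta 1 and mta 4, and with the replicate number as a block. ATCG00350 was also called without mta 4, and ATCG00020 with the block alone.

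ATCG00480 ran the other way. It had 257.1, 180.4, 192.6 and 192.7 normalised read counts in mta 1 to 4, and 233.9, 254.4, 250.8 and 230.4 in WT 1 to 4. It was the steadiest leading member among WT libraries, and all mta libraries but mta 1 lay below all of WT. The log2 fold change was -0.25 (standard error 0.12, limma adjusted p = 0.145). It was called lower with the authors' scaling alone, with array weights, when mta 1 was left out and when WT 1, mta 1 and mta 4 were all left out. The other 3 plastid members below 0 were ATCG00470 at -0.12, ATCG00540 at -0.12 and ATCG01100 at -0.33, with limma adjusted p-values of 0.652, 0.772 and 0.661.

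The remaining plastid members that the annotation notes name were not called. ATCG00430, noted as photosystem II reaction center protein G, had a log2 fold change of 0.12 (limma adjusted p = 0.796). No protein-coding plastid gene in the reference has the symbol psbG, so this name is not taken as its role. ATCG00530, noted as related to the CemA proton extrusion protein, had 0.16 (adjusted p = 0.567). ATCG00660, the ribosomal protein L20 gene, had 0.38 (adjusted p = 0.487).

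Relative to the plastid total instead of to all genes, 4 of 44 plastid members (9.09%) were called, 1 higher and 3 lower in mta. That share lies below the 26.4% of all genes called in the main fit. On this scale 23 of the 44 had log2 fold changes above 0. ATCG00480 made up 7.06, 9.47, 8.43 and 9.04% of the plastid total in mta 1 to 4, and 9.78, 18.6, 13.5 and 16.9% in WT 1 to 4. The genotypes did not overlap, although WT 1 lay close to mta 2, and the means were 8.50 ± 1.05% in mta and 14.7 ± 3.91% in WT (SD, n = 4 each; log2 fold change -0.75, standard error 0.18, limma adjusted p = 0.0118). ATCG00540 averaged 0.582 ± 0.0748% in mta and 0.902 ± 0.0872% in WT, also without overlap (log2 fold change -0.59, limma adjusted p = 0.0157). ATCG00470 averaged 1.67 ± 0.468% in mta and 2.54 ± 0.443% in WT, with overlap (log2 fold change -0.61, limma adjusted p = 0.0411). ATCG00790 averaged 1.72 ± 0.487% in mta and 1.0 ± 0.105% in WT, with overlap because mta 1 lay below WT 2 (log2 fold change 0.71, limma adjusted p = 0.0268). ATCG00790 was the single member called on both scales. Absence of overlap on this scale was not limited to called members. ATCG00280 was higher in every mta library than in any WT library, and ATCG00430 lower, without a call (limma adjusted p = 0.0602 and 0.0883). The 3 members called lower were not called against all genes. A member that does not rise with the plastid total counts as lower on this scale, so these calls need not mean a fall in amount.

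**Figure D5:**
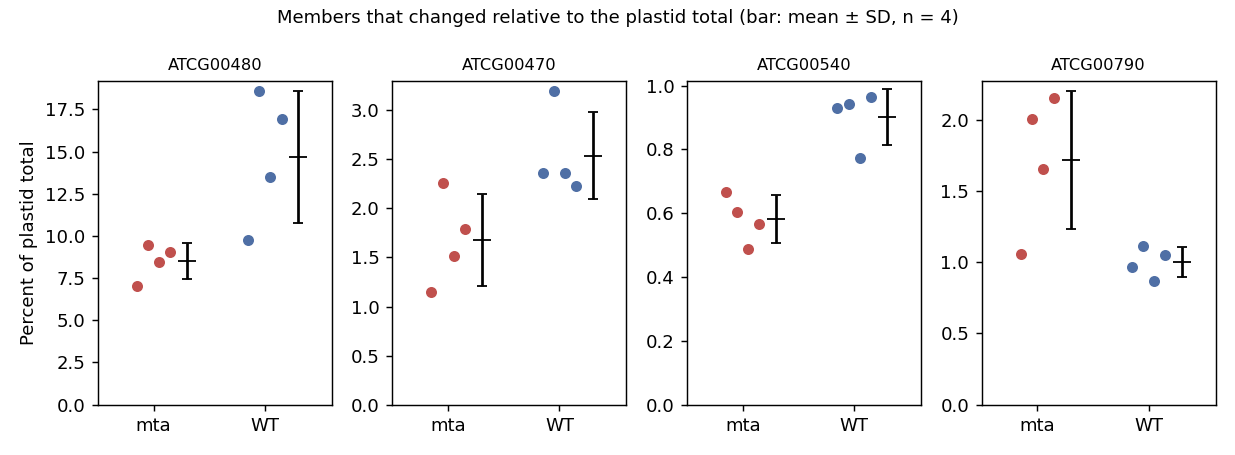
Percent of the plastid total held by the 4 members called on this scale (limma adjusted p under 0.05), in each mta library (left) and WT library (right). Bars are mean ± SD (n = 4). ATCG00480 and ATCG00540 are lower in every mta library than in any WT library, ATCG00470 is lower in mta with overlap, and ATCG00790 is higher in mta on average, with mta 1 below WT 2.

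No mitochondrial member was called by limma among 7 tested. At an unadjusted p under 0.05 there were 2 (28.6%), ATMG01390 and ATMG00020, both higher in mta. Over all genes it was 38.3% in either direction and 19.1% higher. The median log2 fold change was -0.03, against -0.02 over all tested genes, and 3 of the 7 were above 0. For 5 of the 7 the highest mta library was mta 4.

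ATMG01390 had 229.3, 227.0, 206.4 and 239.4 normalised read counts in mta 1 to 4, and 197.7, 151.1, 217.1 and 136.2 in WT 1 to 4. The mta libraries were tight and the WT libraries spread, and WT 3 alone reached into the mta range. The means were 225.5 ± 13.8 in mta and 175.5 ± 38.1 in WT (SD, n = 4 each; log2 fold change 0.38, standard error 0.14, limma adjusted p = 0.0723). ATMG01390 was called higher with upper-quartile scaling, when WT 3 was left out and when WT 1, mta 1 and mta 4 were all left out.

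ATMG00020 had 93.1, 168.9, 151.5 and 238.8 normalised read counts in mta 1 to 4, and 72.7, 105.0, 149.9 and 73.9 in WT 1 to 4. Library 1 was the lowest of each genotype, the reverse of the plastid pattern, and mta 1 lay below WT 2 and WT 3. The log2 fold change was 0.68 (standard error 0.29, limma adjusted p = 0.103). It was called higher when mta 1 was left out, when WT 3 was left out and when WT 1, mta 1 and mta 4 were all left out.

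The other 5 tested mitochondrial members had log2 fold changes of 0.00 (ATMG00640), -0.03 (ATMG00660), -0.22 (ATMG01360), -0.31 (ATMG00670) and -0.35 (ATMG00090), with limma adjusted p-values of 0.338 to 0.997. ATMG00660 had 9.38, 12.3, 11.5 and 16.9 normalised read counts in mta 1 to 4, and 19.0, 10.5, 11.5 and 10.5 in WT 1 to 4. WT 1 was the highest of the 8.

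Among mitochondrial members too low to be tested, 2 were listed in every WT library and in a single mta library. Their values were at most 4.40, close to the listing limit of 1, and the share of all genes listed in this way is not given here. ATMG01090, which the notes call ATP synthase 9 mitochondrial, had a normalised read count of 1.97 in mta 3 and was not listed in the other mta libraries. In WT 1 to 4 it had 3.81, 1.69, 3.66 and 1.91. The notes give the name mitochondrial F0-ATPase subunit 9 to another identifier, ATMG01080, which no library listed. ATMG01370 had 1.39 in mta 1 and was not listed in the other mta libraries, against 2.54, 4.40, 2.61 and 4.06 in WT 1 to 4. ATMG00560, noted as an OB-fold nucleic-acid-binding protein, was listed in mta 2 alone, at 1.05.

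Nuclear genes that act on organelle RNA were set beside these values. Of 43 tested, 6 were called higher and 4 lower in mta, against 13.3% higher and 13.1% lower over all genes. Without mta 4 these were 7 higher and 12 lower, against 17.3% higher and 18.7% lower over all genes. The list of 21 genes for plastid and mitochondrial transcription had 3 higher and 2 lower, with a median log2 fold change of 0.07. FSD2 (AT5G51100), an iron superoxide dismutase found with the plastid RNA polymerase, had 103.3 ± 6.19 normalised read counts in mta and 57.4 ± 1.85 in WT (SD, n = 4 each), a log2 fold change of 0.84 (limma adjusted p = 0.000138). Its partner FSD3 (AT5G23310) had a log2 fold change of 0.38 (adjusted p = 0.0460), a call lost under 11 of 20 alternatives, the removal of mta 1, mta 2, mta 3, WT 2, WT 3 or WT 4 among them. MGP3 (AT1G68990), a phage-type RNA polymerase of mitochondria, rose by 0.60 (limma adjusted p = 0.0141), lost with the authors' scaling alone. The lower pair were SIGE (AT5G24120), a plastid sigma factor, with 212.7 ± 12.3 in mta and 310.7 ± 14.1 in WT and a log2 fold change of -0.55 (adjusted p = 0.00108), and the sigma factor SIGC (AT3G53920), at -0.36 (adjusted p = 0.0233). The call of SIGC was lost under 6 of 20 alternatives, among them upper-quartile factors and the removal of mta 3, WT 2, WT 3 or WT 4.

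In the list of 6 organelle RNA decay genes 1 was called. AT5G14580, which codes for a polynucleotide phosphorylase that degrades tailed RNA in mitochondria, had 16.3, 19.1, 14.8 and 25.8 normalised read counts in mta 1 to 4, and 7.62, 7.45, 9.93 and 9.80 in WT 1 to 4. No mta library overlapped WT, and the log2 fold change was 1.02 (standard error 0.20, limma adjusted p = 0.00333). Its plastid counterpart RIF10 (AT3G03710) was not called, at a log2 fold change of -0.30 (limma adjusted p = 0.111). RIF10 was called with array weights, without mta 4, and when WT 1, mta 1 and mta 4 were all left out.

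The list of 16 plastid RNA binding and stabilisation genes had 2 higher and 2 lower in mta, with a median log2 fold change of -0.07. CP33 (AT3G52380) and CP29 (AT3G53460), chloroplast ribonucleoproteins, rose by 0.59 and 0.50 (limma adjusted p = 0.00139 and 0.00558). Their relative CP31B (AT5G50250) had a log2 fold change of -0.38 (limma adjusted p = 0.0134). HCF173 (AT1G16720), needed to translate the plastid mRNA of the photosystem II protein D1, had -0.42 (limma adjusted p = 0.00508).

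Markers of leaf cell types were set beside these values too, where 13.3% of all genes were called higher and 13.1% lower. Of 6 mesophyll markers 3 were called higher and none lower, and their summed normalised read count was 402039 to 662678 in mta libraries and 321089 to 412732 in WT libraries, with overlap. Of 7 vascular markers 3 were called higher and 1 lower, with sums of 7003 to 7496 in mta and 5628 to 5970 in WT, without overlap. Of 8 epidermal and guard cell markers 3 were called higher and none lower, with sums of 6912 to 9965 in mta and 7846 to 8502 in WT, with overlap. All markers of the 3 lists were listed, mesophyll ones at the highest values. The part of a shift in cell types in the plastid counts was not tested.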

How the data were processed

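Poly(A) RNA of 8 leaf libraries, 4 mta and 4 WT, was analysed from 1 deposited list of values per library. Per the submitters' processing notes, STAR 2.4.0, HTSeq and DESeq2 were among the tools used, with the genome build TAIR10. The notes as used here give neither order nor settings. The authors' deposited values are a normalised signal per gene: every listed value below 1000 was a whole multiple of 1 step per library (within 0.02 of a step, beside rounding), larger values were not checked, and rows below 1 were left out. Libraries were strand-specific, per the labels' protocols, and whether counting used strand is not given in the sources used here.

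Unlisted genes were set to 0. The filter kept 18328 of 20690 genes, those that reached 3, before rescaling, in 4 or more libraries. Values were rescaled by factors from the trimmed mean of M values, and limma 3.58.1 (R 4.3.3) fitted log2(value + 1) on genotype alone, with its trend option. p-values were adjusted over all tested genes by the Benjamini-Hochberg method at 0.05. A count model planned for raw counts was not used, as the values are normalised. The fit was tested on simulated data. It recovered 58.2% of planted 1.5-fold changes, 92.3% of 2-fold and 100% of 4-fold, and 1.79% of calls were false. The simulated libraries differed in scale and random spread alone, without a trend such as that with gene length. These rates thus need not hold for the real libraries. Figures were drawn with matplotlib 3.10.9.

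Members, lists and alternatives were chosen with earlier results of these data known. The rule for names took MTA, ABI3, the 12 members of each organelle with the highest mean, up to 10 called members in each direction and up to 4 genes of each nuclear list. Other names were given after their values were seen. A ranking per length and classes by symbol were planned, but the reference matched 0 of 86 identifiers, so neither was made. Names of 7 members came from notes in the TAIR10.1 annotation. As that is not the build of the files, no coordinates are given. Same-numbered libraries of the 2 genotypes correlated at 0.465, 0.083, -0.204 and -0.345 in their deviations from the group means, so the numbers were not taken as pairs.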

Additional observations from a re-analysis of the deposited data

Results flagged for a closer look

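Single libraries stood apart from the other 3 of their genotype in 9 of 64 groups of 4 libraries, drawn from the named members, the organelle shares and MTA, by a gap past Dixon's critical share of the group's range, which chance gives in about 5% of groups. In WT, WT 1 was high for ATCG00270 (54.6 normalised read counts, others 26.4 to 30.6), ATCG00350 (225.4, others 84.3 to 94.2) and ATMG00660 (19.0, others 10.5 to 11.5). WT 3 was low for ATMG00690 (1.57, others 3.73 to 3.82). In mta, mta 1 was high for ATCG00480 (257.1, others 180.4 to 192.7) and ATCG00490 (447.8, others 210.2 to 235.9), and mta 4 for ATCG00790 (45.9, others 37.8 to 38.6). ATMG01090 (1.97 in mta 3) and ATMG01370 (1.39 in mta 1) stand apart because the other mta libraries do not list them.

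Reads with more than 1 alignment, which enter no comparison of genes, made up 8.41% of the deposited total on average in mta libraries, above the 6.06 to 7.07% of WT libraries.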

How the results depend on the processing

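The differences of both organelle shares kept their sign under every alternative tried, from 41.8 to 112.9 ppm (plastid) and from 4.03 to 16.6 (mitochondrial) when 1 library was left out. The 8 plastid calls became 5 with the authors' scaling (4 higher, 1 lower), 22 with array weights (21 higher), 13 without WT 1, mta 1 and mta 4 (12 higher), 3 with WT 2 and WT 3 averaged, 4 when scaled to the plastid total and 2 to 13 when 1 library was left out. The first 4 of these were 11.4%, 50%, 33.3% and 6.82% of tested plastid members, against 32.3%, 52.9%, 46.4% and 19.3% of all genes. Called higher were 9.09%, 47.7%, 30.8% and 6.82%, against 9.12%, 24.9%, 21.7% and 9.96% of all genes. The 0 mitochondrial calls became 1 with upper-quartile factors, 2 without a filter (ATMG01090 and ATMG01370, each at 0 for want of a listing in 3 mta libraries), 2 without WT 1, mta 1 and mta 4, and 0 to 2 when 1 library was left out. The first 3 of these were 14.3%, 8.33% and 33.3% of tested mitochondrial members, against 25.6%, 23.6% and 46.4% of all genes. Without WT 3 the share was 33.3%, against 19.1%. Over all genes the 4842 calls became 9690 with array weights, 8292 without those 3 libraries and 3192 to 6543 when 1 was left out. With the authors' scaling they were 5920, 1671 higher and 4249 lower, with a median of -0.16. With upper-quartile factors they were 2888 higher and 1806 lower. The 10 calls among nuclear genes of organelle RNA became 27 with array weights, 23 without those 3 libraries and 8 to 19 when 1 was left out (19 without mta 4). The 27, 23 and 19 were 62.8%, 53.5% and 44.2% of these nuclear genes, against 52.9%, 46.4% and 36% of all genes. The log2 fold change of MTA lost its call at -0.45 with upper-quartile factors, -0.29 without those 3 libraries and -0.49 with WT 2 and WT 3 averaged, and ran from -0.62 to -0.44 when 1 library was left out. The causes were not tested. Fits without 1 library have fewer samples. Of 698 pairs of a named gene and an alternative, 594 kept their side of the threshold, 70 lost a call and 34 gained one. Direction was compared only where either fit called the gene, and there 0 reversed. A change of sign without a call counted as kept, as for ATCG00120, at 0.33 in the main fit and -0.17 when scaled to the plastid total.

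With the replicate number as a block, 16 plastid members were called, all higher, 0 mitochondrial, 11 nuclear and 4516 over all genes. That was 36.4% of tested plastid members and 25.6% of the nuclear genes of organelle RNA. Over all genes it was 24.6% in either direction and 12.6% higher. The libraries share only a number, and not every one correlated best with its own. Count tests on recovered reads were planned but not run, as the values were not accepted as whole reads.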
